A study of Mus musculus with 4 samples.

Results

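The collagen cross-linking and hydroxylation enzymes described here were 10 genes, namely the lysyl oxidases *Lox*, *Loxl1*, *Loxl2*, *Loxl3* and *Loxl4*, the lysyl hydroxylases *Plod1*, *Plod2* and *Plod3*, and the prolyl 4-hydroxylase alpha subunits *P4ha1* and *P4ha2*. Every Runx2 peak that shared at least 1 bp with the gene body of a member, widened by 20 kb on each side, was assigned to that member. The windows held 39 of 25457 peaks at day 0, 58 of 60596 at day 9 and 55 of 40330 at day 28. Merged over days where they shared at least 1 bp, the peaks formed 79 of 67703 regions, and the 10 genes were set beside all 22359 protein-coding genes.

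Runx2 occupancy was measured by chromatin immunoprecipitation and sequencing (ChIP-Seq) with the Runx2 antibody M70 in MC3T3-E1 subclone 4 cells, a preosteoblast line derived from mouse calvaria (strain C57BL/6, passages 28-31). The groups were proliferating preosteoblasts at day 0, matrix-depositing osteoblasts at day 9 and mineralizing osteoblasts at day 28, with differentiation induced by ascorbic acid and beta-glycerophosphate. Input DNA came from matrix-depositing cells and served as control for all 3 days. Each day had 1 peak list called on the pooled reads of 2 libraries, so that no value below has a replicate error and no difference between days could be tested. All 3 groups are 1 subclone of 1 line. The lists hold no expression values, and the labelled cell states were not checked against marker genes here. The study itself followed the stages by alkaline phosphatase and Von Kossa staining and by mRNA levels of osteoblast markers.

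Collagen chains are modified in the endoplasmic reticulum before they are secreted. Prolyl 4-hydroxylase converts proline to 4-hydroxyproline, which stabilises the collagen helix at body temperature, and lysyl hydroxylases convert lysine to hydroxylysine. Outside the cell, lysyl oxidases oxidise lysine and hydroxylysine to aldehydes that form the covalent cross-links of collagen and elastin fibres, and in bone these links give the matrix its tensile strength. Runx2 is the transcription factor required for osteoblast differentiation, and Runx proteins bind DNA at the core sequence TGTGGT.

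To show what lay beneath the peaks, the 101 bases around the day 9 peak centre are printed for the highest-scoring intronic or upstream peak with TGTGGT in each member that had one outside untranslated exons (*Lox* not shown). They are followed by the windows of an exonic *Loxl2* peak and of the *P4ha2* start site, both added after their values were seen. Bases are from mm9 (NCBIM37), read 5′ to 3′ on the strand of the gene, and capitals mark TGTGGT or its reverse complement ACCACA.
*Loxl1* intron 6, chr9:58137127-58137227, minus strand: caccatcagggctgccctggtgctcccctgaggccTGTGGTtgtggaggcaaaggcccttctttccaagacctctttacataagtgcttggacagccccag
*Loxl2* intron 12, chr14:70090931-70091031, plus strand: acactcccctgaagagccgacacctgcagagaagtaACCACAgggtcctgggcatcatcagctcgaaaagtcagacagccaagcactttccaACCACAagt
*Loxl3* upstream, chr6:82967580-82967680, plus strand: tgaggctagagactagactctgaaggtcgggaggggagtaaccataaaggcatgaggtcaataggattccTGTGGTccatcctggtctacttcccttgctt
*Plod2* upstream, chr9:92433268-92433368, plus strand: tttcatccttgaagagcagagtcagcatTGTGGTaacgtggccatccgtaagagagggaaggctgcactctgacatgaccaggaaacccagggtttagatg
*P4ha1* intron 1, chr10:58798290-58798390, plus strand: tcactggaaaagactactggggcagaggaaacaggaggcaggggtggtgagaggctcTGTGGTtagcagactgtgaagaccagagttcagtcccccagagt
*P4ha2* intron 13, chr11:53940341-53940441, plus strand: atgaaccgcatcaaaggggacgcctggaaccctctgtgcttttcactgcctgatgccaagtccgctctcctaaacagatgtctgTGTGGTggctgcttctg
*Loxl2* exon 11, chr14:70088799-70088899, plus strand: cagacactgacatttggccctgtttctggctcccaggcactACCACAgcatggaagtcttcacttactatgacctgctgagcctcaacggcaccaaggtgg
*P4ha2* start site, chr11:53914217-53914317, plus strand: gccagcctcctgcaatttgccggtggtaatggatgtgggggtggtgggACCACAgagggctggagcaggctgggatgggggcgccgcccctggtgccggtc

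Each of the 10 genes had at least 1 Runx2 peak in its window at every day. Among all protein-coding genes this held for 65.0% at day 0, 77.0% at day 9 and 71.2% at day 28. The members had a median of 3.00, 4.50 and 4.00 peaks at days 0, 9 and 28, against 1, 2 and 2 over all genes. Their windows were somewhat longer, with a median of 66.3 kb against 55.4 kb. Per 100 kb of window the medians were 4.86, 6.52 and 6.22 peaks for the members and 1.69, 3.49 and 2.33 for all genes. The 5 lysyl oxidase genes held most of the peaks (25, 40 and 38), but unevenly. *Loxl1* had 6, 13 and 11 and *Loxl2* 7, 13 and 16, while *Loxl3* had 7, 7 and 4, *Loxl4* 2, 5 and 6 and *Lox* 3, 2 and 1. A member's start was the nearest one for 34 of the 53 lysyl oxidase regions. This held for 12 of 17 lysyl hydroxylase and 8 of 9 prolyl 4-hydroxylase regions. The 3 lysyl hydroxylase genes held 9, 10 and 12 peaks, and the 2 prolyl 4-hydroxylase genes held 5, 8 and 5.

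**Figure D1:**
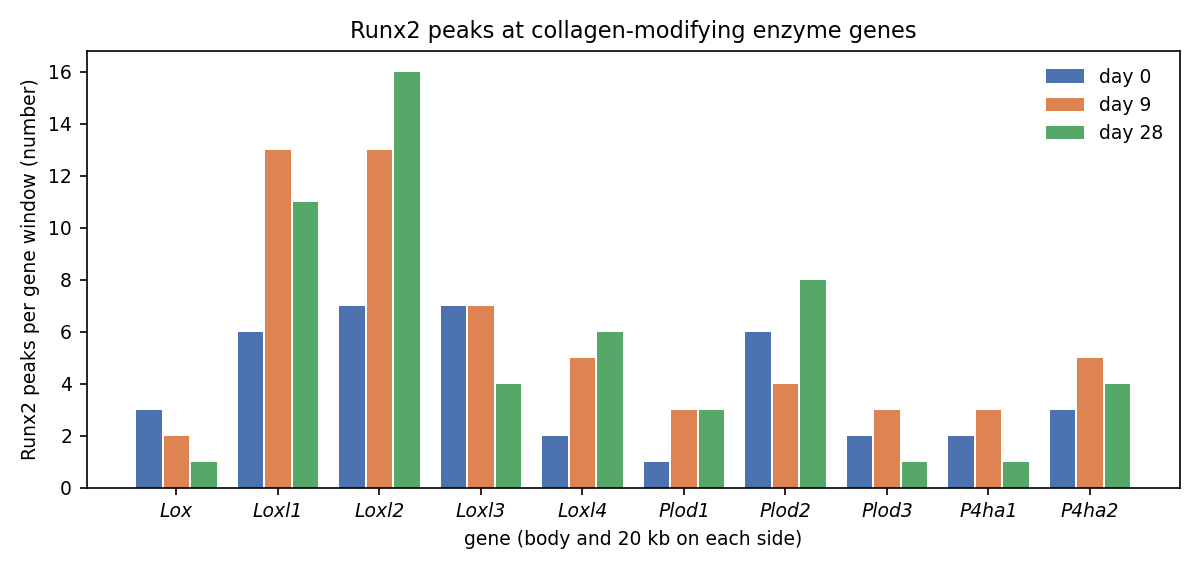
Bars give the number of Runx2 peaks in the window of each gene (gene body and 20 kb on each side) in the peak lists of days 0, 9 and 28. *Loxl1* and *Loxl2* reached 13 peaks each at day 9, while *Lox* went from 3 to 2 to 1.

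The member windows gained peaks by a factor of 1.49 from day 0 to day 9, while the whole list was 2.38 times as long. In all, 7 of 10 members had more peaks at day 9 than at day 0 (60.3% of all genes), namely *Loxl1*, *Loxl2*, *Loxl4*, *Plod1*, *Plod3*, *P4ha1* and *P4ha2*. *Lox* and *Plod2* had fewer, as did 3.98% of all genes. From day 9 to day 28 the whole list shortened to 0.666 of its length and the member peaks to 0.948, and *Loxl2*, *Loxl4* and *Plod2* had more peaks at day 28 than at day 9, as did 6.58% of all genes.

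The order of the days depended on how many peaks of each list were kept. With the 25457 top-scoring peaks of each list, the windows held 39, 31 and 38 peaks, so that day 9 fell below day 0. *Loxl1* (6, 8 and 6 peaks) and *Plod1* (1, 2 and 3) then had more peaks at day 9 than at day 0 (22.9% of all genes), and *Lox*, *Loxl3*, *Plod2*, *Plod3* and *P4ha1* had fewer (20.9% of all genes). *Loxl2*, *Loxl3*, *Loxl4*, *Plod1* and *Plod2* then had more peaks at day 28 than at day 9 (16.4% of all genes). With a stricter p-value of 1e-50 in every list, the windows held 10, 27 and 25 peaks, and the day 9 number was 2.70 times that of day 0, against 2.91 times for the lists.

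The score of a peak is −10 times the log10 of its p-value, starts at 100 in these lists and stops at 3100. Because scores rise with sequencing depth, each peak was ranked only within its own list, and its percentile is the share of that list with a score at or below its own, ties averaged. On day 0 the member peaks had a median percentile of 42.8, with a 95% interval from 19.6 to 60.3. On day 9 it was 61.1, interval 50.3 to 73.1, and on day 28 it was 53.3, interval 46.8 to 68.1. These medians also moved with list length. With lists of equal length the day 0 median was again 42.8. The day 9 median was then 46.9 (36.0 to 67.5) and the day 28 median 49.7 (37.4 to 64.0), without a fall after day 9. In the lists as deposited, 3, 5 and 5 member peaks were at or above the 90th percentile, and 15, 9 and 12 lay under the 25th. The top score of 3100 was reached by 3 of 58 member peaks at day 9 and 2 of 55 at day 28, and by 2699 of 60596 and 1468 of 40330 peaks of the lists. Median peak widths were 825, 624 and 804 bp on the 3 days, against 917, 554 and 763 bp in the whole lists.

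**Figure D2:**
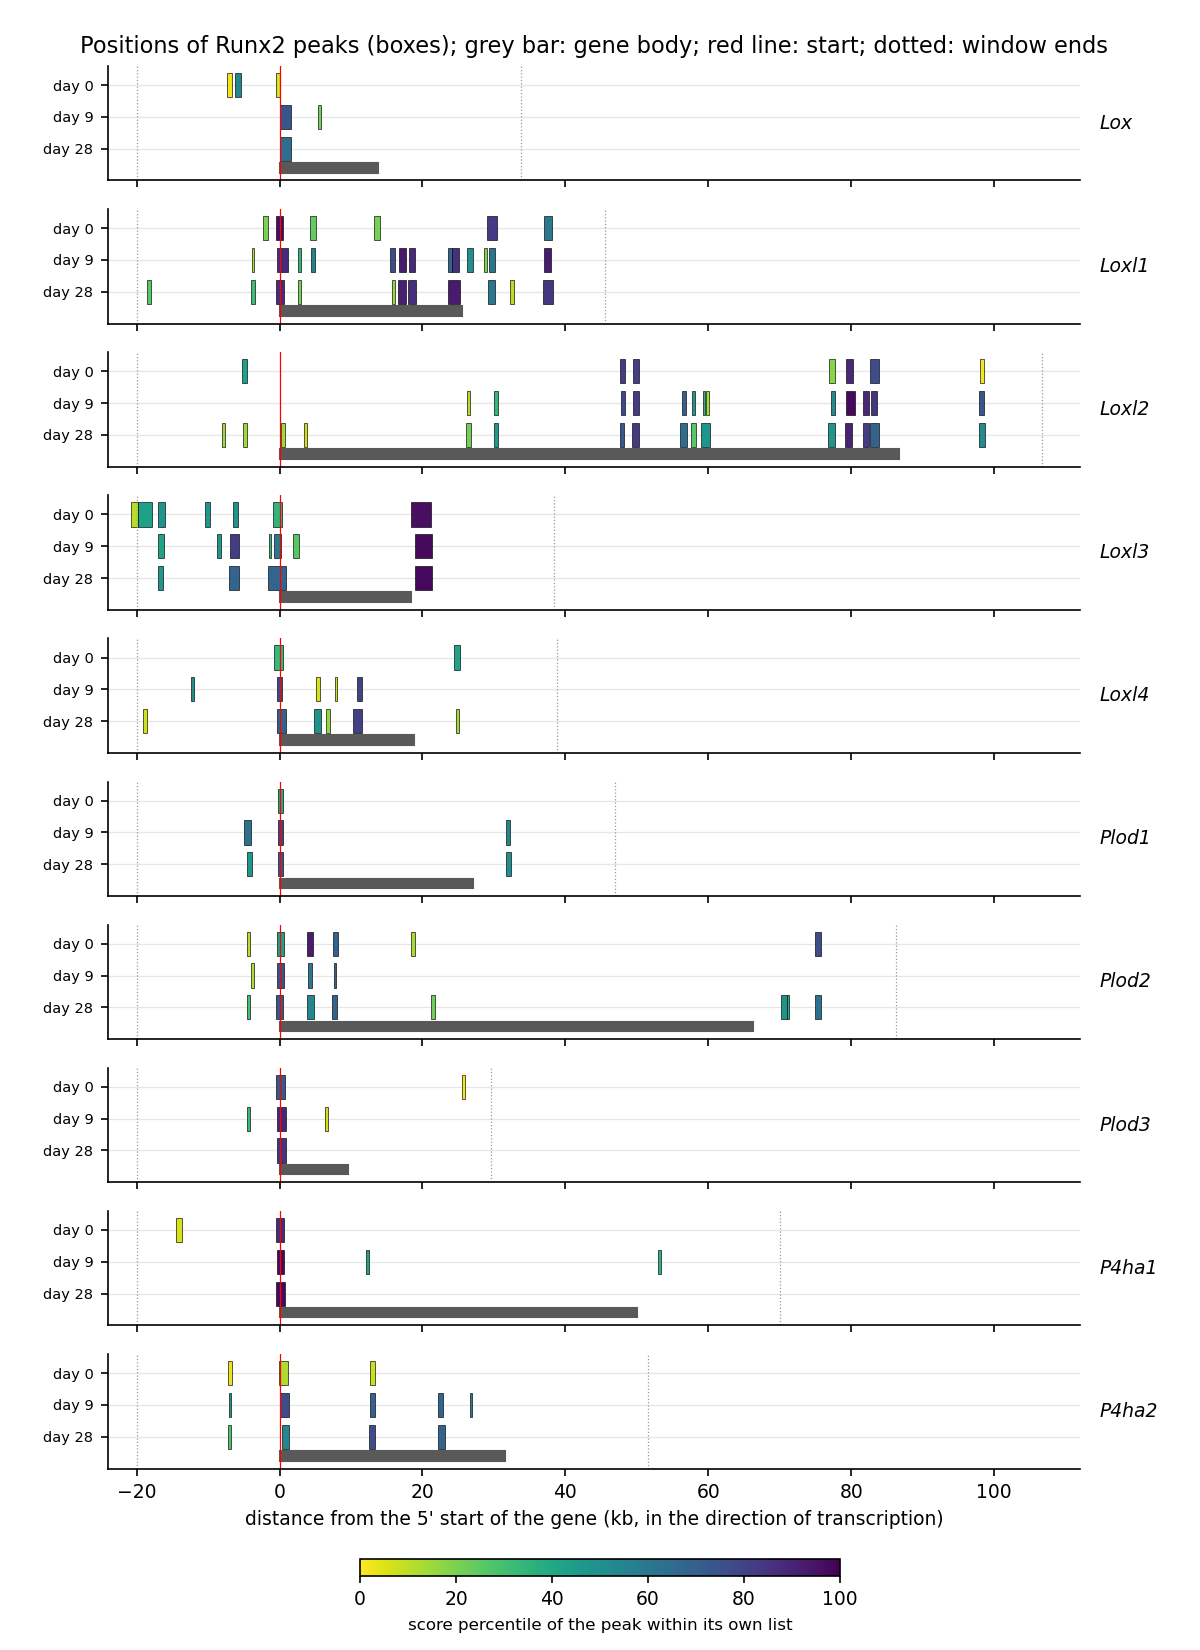
Boxes give the position and width of each Runx2 peak relative to the 5' start of the gene (kb, in the direction of transcription), in a row for each day, shaded by score percentile within its list. The grey bar is the gene body, the red line the start and the dotted lines the window ends. Peaks of *Loxl2* lay mostly inside the gene body, and those of *Loxl3* lay mostly outside it.

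A start site was called occupied where a peak overlapped the stretch from 1000 bp before to 150 bp after the 5' end of any protein-coding transcript of the gene. Of the 10 members, 9 were occupied at day 0 (42.7% of all genes), 9 at day 9 (51.6%) and all 10 at day 28 (50.1%). The exception at days 0 and 9 was *Loxl2*. In the other 9 genes the start site lay in a region with peaks at all 3 days, as in 42.2% of all genes. By the stricter p-value of 1e-20, 5 members had an occupied start site at day 0 (33.7% of all genes). When the peak centre itself had to lie in the stretch, the numbers were 9, 6 and 6 (33.8%, 40.6% and 39.2% of all genes).

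In the lists as deposited, start-site peaks ranked higher at day 9 than at day 0 in 8 of 9 members. Their median percentiles were 39.3, 77.7 and 70.9 on the 3 days, and over all genes with such a peak they were 61.9, 82.3 and 79.0. The median change from day 0 to day 9 was 31.6 percentile points among the members, from -8.11 to 67.6. It was 20.1 over all genes, of which 90.7% had the higher rank at day 9. From day 9 to day 28 the median change was -4.59 points, with 2 of 9 members (22.2%) higher at day 28, against -2.82 points over all genes, of which 34.6% were higher. The largest change was at *Lox*, whose start-site peak stood at percentile 5.55, 73.1 and 64.6. Its day 0 peak shared 73 bp with the day 9 peak and 10 bp with the day 28 peak. *P4ha2* followed with 12.5, 77.2 and 53.3, and its day 0 peak shared 1229 and 906 bp with the later peaks. *Loxl1* was the exception, at 96.5, 88.4 and 88.1.

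These ranks moved with list length. With the 25457 top-scoring peaks of each list, the median percentiles of the member start-site peaks were 39.3, 46.9 and 56.9, against 61.9, 66.0 and 69.9 over all genes. The median change from day 0 to day 9 was then 5.73 points, with 6 of 9 members higher at day 9 (57.0% of all genes), and from day 9 to day 28 it was 7.42 points, with 8 of 9 members higher at day 28 (71.8% of all genes). *Lox* (5.55, 36.0 and 44.0) and *P4ha2* (12.5, 45.8 and 26.0) still ranked higher at both later days than at day 0. From day 0 to day 9 the change of *P4ha2* was then the highest of the 9. *Loxl1* (96.5, 72.4 and 81.1) ranked lower at both, and *Loxl3* (34.4, 2.61 and 49.2) and *Plod2* (43.0, 39.6 and 56.9) ranked lower at day 9. The day 28 peak over the *Loxl2* start site was not among the peaks kept.

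**Figure D3:**
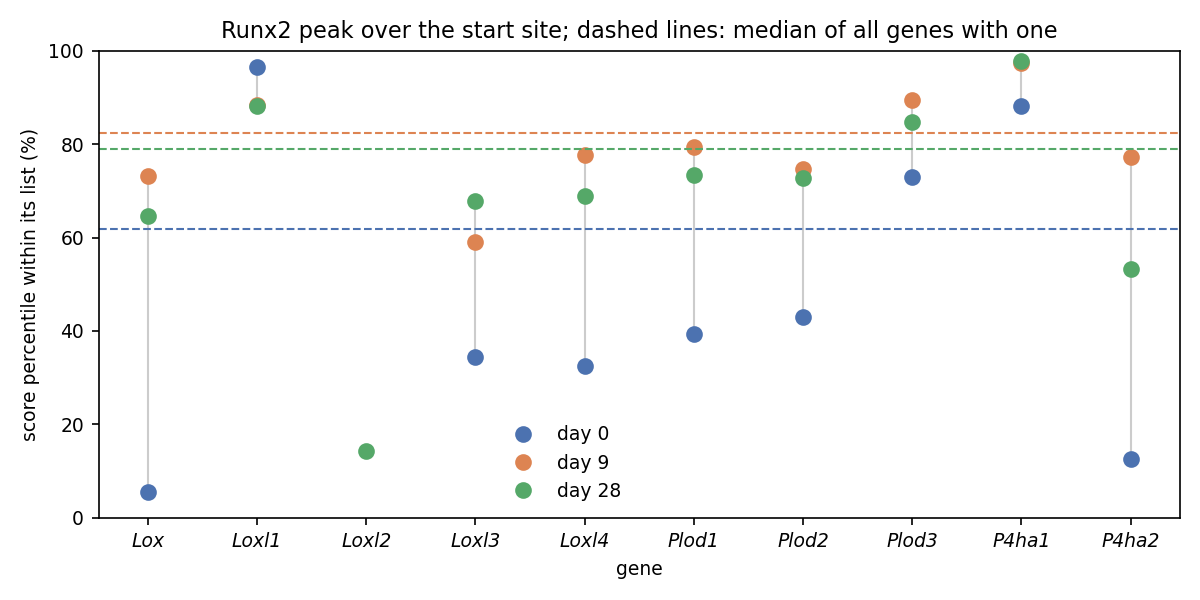
Points give the score percentile, within each day's list, of the highest Runx2 peak over the start site of each gene, and dashed lines the median of all genes with such a peak on that day. *Lox* and *P4ha2* were lowest at day 0, *Loxl1*, *Plod3* and *P4ha1* stayed above the dashed line on every day, and *Loxl2* had a peak at day 28 alone. Ranks are within lists of unequal length, and with equal lengths the median change from day 0 to day 9 was 5.73 points.

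*Lox* (ENSMUSG00000024529, chromosome 18, 52675723 to 52689521, minus strand) encodes the enzyme after which the family is named. It had 3, 2 and 1 peaks at days 0, 9 and 28 in 4 regions, the fewest of the lysyl oxidases at day 28. The day 0 peak over the start site was centred at -172 bp from the 5' start with a score of 110.92, close to the lower limit. The day 9 and day 28 peaks of the same region were centred further into the gene, at 791 and 816 bp. A pair of upstream regions, centred at -5858 bp (percentile 53.3) and -6998 bp (percentile 2.17), held a peak at day 0 alone. An intron 5 region was found at day 9 alone, at percentile 20.4.

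*Loxl1* (ENSMUSG00000032334, chromosome 9, 58135530 to 58161019, minus strand), which cross-links elastic fibres, had 6, 13 and 11 peaks in 16 regions. These numbers stood at percentiles 96.2, 96.1 and 97.9 among all genes, and peaks covered 9.01%, 14.9% and 15.0% of its window. In 6 regions there were peaks at days 9 and 28 without day 0. The highest of them at day 9 lay in intron 2, at 17170 bp from the start, at percentile 92.9 at day 9 and 91.3 at day 28. Its neighbour in the same intron, at 18559 bp, stood at 88.4 and 86.3. Another region, over exon 7, the last exon, and intron 6, stood at 86.3 and 92.8 and held 7 copies of TGTGGT. The start-site region held a peak on all days, with percentile 96.5 at day 0, and had no copy of TGTGGT. Downstream, a region at 37591 bp from the start went from percentile 60.3 to 92.4 and 83.8. A region at 29754 bp went from 82.5 to 61.9 and 60.5. With lists of equal length the 2 regions stood at 60.3, 82.0 and 74.4 and at 82.5, 9.41 and 37.4.

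*Loxl2* (ENSMUSG00000034205, chromosome 14, 70008978 to 70095640, plus strand), which cross-links collagen IV in basement membranes, had 7, 13 and 16 peaks in 16 regions and was the longest of the 10 genes. Its peak number stood at percentile 97.7, 96.1 and 99.4 among all genes, and at 86.7, 83.4 and 96.2 per 100 kb of window. Its start site was occupied at day 28 alone, by a 488 bp peak at percentile 14.4. Of its 16 regions, 11 lay in introns between 26431 and 83282 bp from the start. The highest region, from intron 10 into exon 11 at 79813 bp from the start, stood at percentile 89.0 at day 0, 97.4 at day 9, where it had the top score of 3100, and 90.3 at day 28. A pair of regions in intron 3 stood at 82.2, 77.6 and 73.0 (47968 bp) and at 82.2, 82.6 and 83.2 (49847 bp). With lists of equal length these ranks were 82.2, 46.6 and 57.3 and 82.2, 58.5 and 73.4. Of the 6 regions found at days 9 and 28 without day 0, the highest lay in intron 12, at percentiles 89.0 and 82.8, and its day 9 window printed above holds ACCACA in 2 places. For 9 of the 16 regions the nearest start site was that of *R3hcc1*, and the downstream region was centred 55 bp from it.

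*Loxl3* (ENSMUSG00000000693, chromosome 6, 82984167 to 83002556, plus strand), which is needed for palate and spine development, had 7, 7 and 4 peaks in 9 regions. Only 1 of these regions, a day 9 peak in intron 2 at percentile 26.3, was nearest to the start of *Loxl3*. All upstream regions, with the one printed above, were centred within the body of another gene, *D6Mm5e*. *Dok1* starts on the opposite strand 702 bp away and was nearest to 7 regions. A peak over the shared stretch cannot be assigned to either gene. It stood at percentile 34.4, 59.1 and 67.9, and at 34.4, 2.61 and 49.2 with lists of equal length. The highest region of the window, at 96.2, 97.4 and 97.8, was centred -21 bp from the start of *Htra2*. The outermost upstream region added only its day 0 peak to the peak numbers, since its day 9 and day 28 peaks lay just beyond the window. As a merged region it counted as found at all 3 days, at percentile 10.2, 54.7 and 30.8. With lists of equal length it kept its day 0 peak alone.

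*Loxl4* (ENSMUSG00000025185, chromosome 19, 42668472 to 42687303, minus strand) had 2, 5 and 6 peaks in 8 regions, all nearest to its own start. The start-site peak stood at percentile 32.6, 77.7 and 69.0. An intron 10 region at 10968 bp held peaks at days 9 and 28 alone, at percentiles 79.9 and 80.8. A region in intron 3 went from percentile 7.01 at day 9 to 49.1 at day 28. A downstream region, centred within the body of *D19Ertd386e*, was found at days 0 and 28, at 42.1 and 13.6. The remaining regions of day 9 alone or day 28 alone stood between 7.81 and 51.3.

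Among the lysyl hydroxylases, *Plod1* (ENSMUSG00000019055, chromosome 4, 147283862 to 147310876, minus strand), which hydroxylates lysines of the collagen helix, had 1, 3 and 3 peaks. Its start site held the only region at all 3 days, at percentile 39.3, 79.3 and 73.5. The other 2 regions, found at days 9 and 28, lay at starts of other genes. The first was centred 1 bp from the start of *Mfn2* (53.8 and 50.6) and the second 262 bp from that of *2510039O18Rik* (63.6 and 46.8).

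*Plod2* (ENSMUSG00000032374, chromosome 9, 92437061 to 92503266, plus strand), which hydroxylates lysines of the collagen telopeptides, had 6, 4 and 8 peaks in 10 regions, all nearest to its own start. It was 1 of the 2 members with fewer peaks at day 9 than at day 0. Its highest region was the intron 1 region at 4282 bp, which stood at percentile 92.1 at day 0, 60.3 at day 9 and 53.5 at day 28. Further into the same intron, at 7786 bp, a region stood at 68.4, 69.4 and 68.9. With lists of equal length the intron 1 regions stood at 92.1, 5.53 and 26.3 and at 68.4, 27.2 and 50.7. The start-site peak went from 43.0 to 74.6 and 72.8 (43.0, 39.6 and 56.9 with lists of equal length). Downstream of the gene, 3 regions were found without day 9, of which the highest, at 75317 bp, stood at 76.9 at day 0 and 62.5 at day 28.

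*Plod3* (ENSMUSG00000004846, chromosome 5, 137462889 to 137472518, plus strand), which also transfers sugars onto hydroxylysine, had 2, 3 and 1 peaks in 4 regions. The start-site peak stood at percentile 73.0, 89.4 and 84.8, and the 3 others, each of 1 day alone, at 32.3 or lower. *Znhit1* starts on the opposite strand 118 bp away, so that the start-site peak cannot be assigned to either gene.

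*P4ha1* (ENSMUSG00000019916, chromosome 10, 58786044 to 58836052, plus strand), which encodes the widely expressed alpha subunit of prolyl 4-hydroxylase, had 2, 3 and 1 peaks in 4 regions. Its start site carried the highest-ranked start-site peak of the members at days 9 and 28. It stood at percentile 88.1, 97.4 and 97.8, and the score reached 3100 on both later days. The region of 1327 bp held 0 copies of TGTGGT. The 3 other regions, each of 1 day alone, stood at 6.16 at day 0 and at 41.9 and 34.9 at day 9. *P4ha2* (ENSMUSG00000018906, chromosome 11, 53913597 to 53945167, plus strand), the alpha subunit known from chondrocytes and osteoblasts, had 3, 5 and 4 peaks in 5 regions. Each of its 3 regions found at all days ranked no higher than percentile 12.5 at day 0. The intron 5 region went from percentile 8.41 to 68.4 and 77.3 (8.41, 24.8 and 64.0 with lists of equal length), and the upstream region from 3.10 to 46.1 and 27.4. With lists of equal length the upstream region kept its day 0 peak alone. The intron 9 region held peaks at days 9 and 28 alone, at 68.1 and 67.7.

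Over the 79 member regions, 25 (31.6%, exact 95% interval 21.6 to 43.1) held peaks at all 3 days, against 27.4% of all regions. A further 17 (21.5%, 13.1 to 32.2) held peaks at days 9 and 28 without day 0, against 21.1%. Day 9 alone accounted for 13 (16.5%, 9.06 to 26.5), where the share of all regions was 34.5%. Day 0 alone accounted for 9 (11.4%, 5.34 to 20.5; all regions 5.60%) and day 28 alone for 10 (12.7%, 6.24 to 22.0; all regions 7.59%). Days 0 and 28 without day 9 accounted for 4 (5.06%, all regions 2.06%), and days 0 and 9 without day 28 for 1 (1.27%, all regions 1.69%). The intervals cover counting error only, and regions of 1 gene share their source. All regions included those outside gene windows. With lists of equal length, day 9 alone held 1 of 54 member regions (1.85%, 0.0469 to 9.89) and 11.9% of all regions. Day 0 alone then held 15 (27.8%, 16.5 to 41.6) and 20.1% of all regions.

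**Figure D4:**
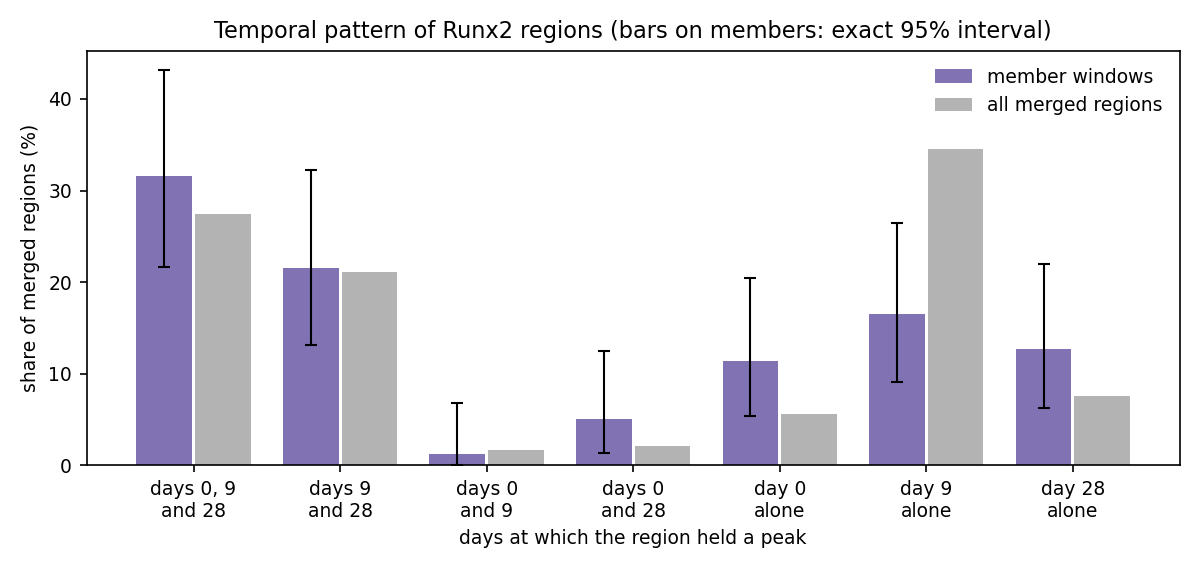
Bars give the share of merged Runx2 regions (%) found at each combination of days, in the member windows (79 regions, with exact 95% intervals for counting error) and in the whole series (67703 regions). Day 9 alone made up 16.5% of the member regions and 34.5% of all regions (1.85% and 11.9% with lists of equal length). Regions of 1 gene share their source, which the intervals leave out. All regions include those outside gene windows.

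By position, 10 of the 79 regions lay over a start site of the member, 32 in introns, 2 over exons, 21 upstream and 14 downstream. These were 12.7%, 40.5%, 2.53%, 26.6% and 17.7%. Placed in the same way in the windows of all genes, 88755 pairs of a gene and a region gave 15.3%, 31.0%, 3.68%, 21.9% and 28.1%. Of the start-site regions, 9 of 10 were found at all 3 days. Of the 17 regions of days 9 and 28, 0 lay over a member's start site (10.9% of such pairs over all genes) and 13 were intronic (76.5%, against 37.1%), in *Loxl1*, *Loxl2*, *Loxl4* and *P4ha2*. At least 1 region of days 9 and 28 was found in 5 members (39.0% of all genes), these 4 and *Plod1*. *Loxl1* and *Loxl2* held 6 of the 17 regions each, and regions of 1 gene share their source. With lists of equal length 8 regions of days 9 and 28 were left, and their positions were not counted. At least 1 region of day 0 alone was found in 6 members (11.6% of all genes), namely *Lox*, *Loxl1*, *Loxl3*, *Plod2*, *Plod3* and *P4ha1*. Of the 9 regions of day 0 alone, 6 lay upstream (66.7%, against 24.4% of such pairs), in *Lox*, *Loxl1*, *Loxl3* and *P4ha1*. The median percentile of the 9 was 19.6, against 23.3 for all such regions. With lists of equal length there were 15 regions of day 0 alone, and with a p-value of 1e-20 there were 5. Their positions were not counted. For 25 of the 79 regions the nearest start site was that of another gene. Positions are relative to the member, and some upstream and downstream regions were centred within the body of another gene.

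The 25 regions found at all 3 days had median percentiles of 48.1, 77.2 and 68.9, against 59.8, 79.5 and 73.2 for all such regions. In 20 of the 25 (80.0%) the rank was higher at day 9 than at day 0, as in 75.5% of all such regions. With lists of equal length it was higher in 11 of 21 (52.4%), against 49.1% of all such regions. Among those with the lowest day 0 ranks was the region at the start of *R3hcc1* downstream of *Loxl2*, which stood at 1.63, 73.8 and 52.5, and at 1.63, 37.7 and 24.7 with lists of equal length. With either kind of list the *Plod2* intron 1 region at 4282 bp and the *Loxl1* region at 29754 bp ranked lower at day 9. So did the *Loxl1* start-site region and the *Loxl2* intron 3 region at 47968 bp. An upstream region of *Loxl3*, at -16510 bp, ranked lower at day 9 as deposited, and its day 9 peak was not kept at equal length. The 17 regions of days 9 and 28 had a median percentile of 63.6 at day 9 and 49.1 at day 28, against 58.6 and 38.5 for all such regions.

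**Figure D5:**
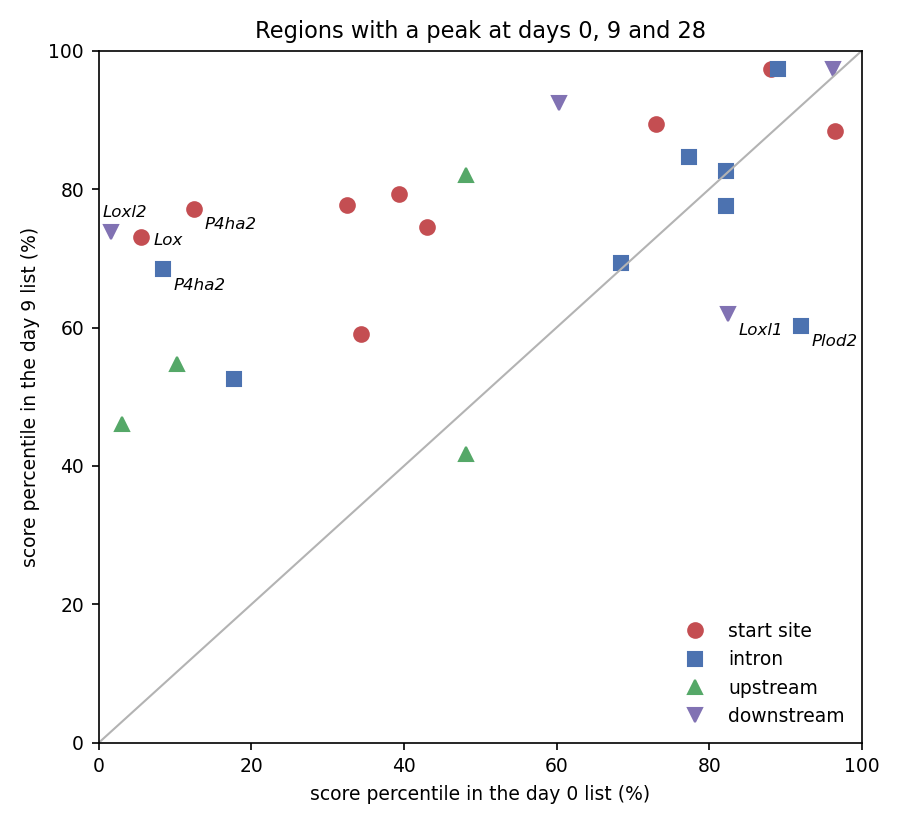
Each point is 1 of the 25 member regions with peaks at all 3 days, placed by its score percentile in the day 0 list (horizontal) and the day 9 list (vertical), with the shape giving its position relative to the gene and the line marking equal ranks. In 20 regions the point lies above the line (11 of 21 with lists of equal length), and the *Plod2* intron 1 and *Loxl1* downstream regions lie farthest below it.

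TGTGGT, searched on both strands, lay within 50 bp of the centre of 7 of 39 member peaks at day 0 (17.9%, exact 95% interval 7.54 to 33.5), 14 of 58 at day 9 (24.1%, 13.9 to 37.2) and 10 of 55 at day 28 (18.2%, 9.08 to 30.9). The whole lists had 16.0%, 25.3% and 20.9%. In windows of the same length 450 to 550 bp to each side, the sequence was found in 8.97%, 9.48% and 9.09% of the member flanks and in 6.68%, 7.32% and 6.99% of all flanks. By region, 26 of 79 (32.9%, 22.7 to 44.4) had a peak centre near TGTGGT, against 31.0% of all regions.

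Over member start sites it was near the centre of 0 of 9 peaks at day 0 (0 to 33.6%), 2 of 9 at day 9 (22.2%, 2.81 to 60.0, *Plod3* and *P4ha2*) and 0 of 10 at day 28 (0 to 30.8%). The start-site peaks of all genes had 4.80%, 6.19% and 5.20%. Elsewhere in the windows it was near 23.3%, 24.5% and 22.2% of the member peak centres, against 22.2%, 30.2% and 26.8% of all peaks away from start sites. The windows around start-site peaks were also richer in G and C, with medians of 62.4%, 69.3% and 69.3% against 49.5%, 54.5% and 54.5% elsewhere, and the part of base composition in this difference was not tested. For the members, elsewhere took in peaks at starts of neighbouring genes such as *R3hcc1*, *Htra2* and *Mfn2*, so the classes are not quite alike. In the stretch from 1000 bp before to 150 bp after the 5' start, 6 of 10 members had TGTGGT, against 52.7% of all genes.

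The lists were also read at other genes of collagen biosynthesis, of which 25 of 26 had an entry in the annotation. At least 1 peak lay in the windows of 21, 24 and 23 of the 25 at days 0, 9 and 28, against 65.0%, 77.0% and 71.2% of all genes. Start sites were occupied in 14, 23 and 21, against 42.7%, 51.6% and 50.1%. In the lists as deposited, 22 had more peaks at day 9 than at day 0, against 60.3% of all genes. With lists of equal length the share of all genes was 22.9%, and the 25 genes were not counted in that way. As deposited, *P4ha3* alone, a further prolyl 4-hydroxylase alpha subunit, had fewer peaks at day 9 than at day 0, with 7, 4 and 4. The most day 9 peaks were those of *Adamts2*, which removes the procollagen N-propeptide, with 6, 27 and 17 in a window of 245 kb. *Tgm2*, which forms glutamine to lysine cross-links, followed with 13, 17 and 12, and *Creb3l1*, an endoplasmic reticulum transcription factor of collagen-secreting cells, with 6, 15 and 11. *Adamts3*, another procollagen N-proteinase, had none at any day. *Leprel1*, a prolyl 3-hydroxylase, was the only one of the 25 with more peaks at day 28 than at day 9, at 7, 9 and 11. It, like *P4ha3*, was named after its values were seen.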

How the data were processed

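Runx2 ChIP-Seq peak lists of days 0, 9 and 28 were used as deposited. Per the labels and the study's methods, base calls were made with CASAVA 1.6, reads were aligned to mm9 with Bowtie 0.12.8, and the authors pooled the reads of 2 libraries per day and called peaks with MACS 1.4.1 against input DNA at a p-value of 1e-10. The deposited value is the MACS score of each peak, which depends on sequencing depth. The lists do not give depth, so scores were ranked within each list only. Input reads and signal tracks were not analysed here.

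Starts were made 1-based. Gene bodies, exons and start sites were those of the 22359 protein-coding genes with a protein-coding transcript in GENCODE M1, and exons and introns were numbered in the transcript with the longest coding sequence. Positions of peaks and regions were taken at their centres, except over start sites, where any overlap counted. The 10 members, the gene lists and the settings were chosen with earlier results of these data known. All 10 members were named, with the highest-ranked region of each temporal pattern where it added to the account, the region nearest the start, neighbouring genes with the nearest start, and, of the other genes, the 3 with the most day 9 peaks and any with none. Mia3 had no entry under that symbol.

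Python 3.11.15, NumPy 2.4.6, SciPy 1.17.1 and pysam 0.24.0 were used, and Matplotlib 3.10.9 for plots. Shares were given with 95% intervals by the exact Clopper-Pearson method, for counting error alone. The 95% intervals of medians were bounded by ranked values chosen from the binomial distribution, with peaks taken as independent. Merging, window counts, motif search and intervals were tested on simulated data. Locations over all genes were counted per pair of gene and region. Stricter p-values, lists of equal length, other windows, nearest-start assignment, and other overlap, start-site and motif settings were tried.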

Additional observations from a re-analysis of the deposited data

How the results depend on the processing

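Of 136 values recomputed under other settings, 99 stayed within 1.5 times the reported count, or within the reported interval, and 37 did not; the cause was not tested unless the setting itself removed peaks. With a p-value of 1e-20, there were 22 day 0 peaks, 5 genes with an occupied start site at day 0, 16 regions of all 3 days, 5 of day 0 alone and 5 of day 28 alone. With 1e-50, there were 10, 27 and 25 peaks at days 0, 9 and 28, 5 genes with a day 0 peak, 2 with an occupied day 0 start site, median percentiles of 38.4 at day 9 and 41.0 at day 28, 7 regions of all 3 days, and 2, 3 and 1 regions of day 0, day 9 and day 28 alone. With equal numbers of top-scoring peaks, there were 31 day 9 peaks with a median percentile of 46.9, 8 regions of days 9 and 28, and 15, 1 and 6 of day 0, day 9 and day 28 alone. Chosen after the values were seen, the same lists gave median changes in rank of the start-site peaks of 5.73 points from day 0 to day 9 and, with the direction reversed, 7.42 points from day 9 to day 28, and 11 regions of all 3 days with the higher rank at day 9. They also gave 2 members with more and 5 with fewer peaks at day 9 than at day 0, and 5 with more at day 28 than at day 9. With windows of 50 kb, there were 62 day 0 and 97 day 9 peaks, 45 regions of all 3 days and 26 of day 9 alone. Counting only peaks nearest to a member's start left 25 day 0 and 37 day 9 peaks, 14 regions of all 3 days and 11 of days 9 and 28. With peak centres required in the start-site stretch, 6 genes were occupied at day 28. Windows of 10 kb, joined peaks, a wider start-site stretch, a larger overlap, a wider motif window and TGYGGT in place of TGTGGT moved no value past these limits.

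Each day is 1 pooled list, so a difference between days includes the depth and the enrichment of its libraries, which the lists do not give and which cannot be told apart from occupancy. By the study's read totals day 0 was sequenced most deeply, although its list was the shortest. A region without a peak at a day was below the threshold there, which does not show that Runx2 was absent. Windows reach neighbouring genes, and a peak near a gene does not show that the gene responds to Runx2. Peak centres stand in for summits.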
